A study of Drosophila melanogaster with 2 samples.

Results

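This account covers 32 Drosophila melanogaster genes that drive the cell cycle and DNA replication, out of 13945 protein-coding genes on the chromosome arms that carried peaks. They were chosen by name, and all 32 names were found in the annotation. The data are chromatin immunoprecipitation followed by sequencing (ChIP-seq), which maps where a protein sits along the genome, for the protein of the fly gene CG10979. Whole embryos of pooled sex, collected from 0 to 14 h of development, came from a transgenic line in which CG10979 carries enhanced green fluorescent protein (eGFP) at its C terminus, and an antibody against the fluorescent protein pulled down the chromatin. The series has 1 group with 2 biological replicates, numbered 2 and 3, of that same line, age and tag, and no second condition. The embryos were not sorted, so a peak stands for an average over all their cells and ages, and which promoter drives the tagged copy was not given in the labels.

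The deposited values are lists of peaks on build dm6. Each replicate has a relaxed list of 30000 peaks, as does the pool of both, and a stricter list holds the 7630 peaks that the authors kept by irreproducible discovery rate (IDR), which scores whether a peak ranks alike in both replicates. The summit is the base at which a peak is highest. The signal value is the authors' own score for each peak, ranks peaks within a list and starts at 189.9 in the IDR list. It is on the pooled scale there, so values of a replicate are lower and are compared between replicates only with the ratio seen over all genes. Read depth is unknown, because the lists hold no counts.

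Cells divide by copying their DNA once and then sharing it out. Before S phase the origin recognition complex (Orc proteins) and the licensing factor dup load the MCM helicase onto DNA, and geminin blocks dup afterwards. Cyclins (Cyc) switch on cyclin-dependent kinases (Cdk) that start S phase and mitosis, E2f1 with its partner Dp turns on genes of S phase, and Rbf holds them back. In the fly embryo the earliest divisions run on products that the mother laid down in the egg. Later divisions wait for transcription of stg, whose product activates Cdk1, and many cells leave the cycle when dap, an inhibitor of CycE with Cdk2, is expressed.

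Of the 32 genes, 16 (50%) had an IDR summit within 500 bp of an annotated start, against 25.2% of all protein-coding genes. They were stg, CycB3, CycD, CycE, Cdk1, E2f1, Dp, fzr, dap, aurA, aurB, Mcm2, dpa, Mcm5, dup and geminin. Their strongest start peaks ran from a signal value of 208.6 to 1804, with a median of 378.4, and the median over the 3520 genes with such a peak was 388.4. The members were thus found more often than genes at large, with peaks of about the usual strength. The list was chosen with earlier results of these data known, so the count describes these genes and no test is given. The count rests on the window. With 200 bp it was 9 genes (28.1%, against 18.3% of all genes), and with 1000 bp it was 16 (50%, against 29.4%). Among the 3815 strongest IDR peaks it was 8 genes (25%, against 13.1%).

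**Figure D1:**
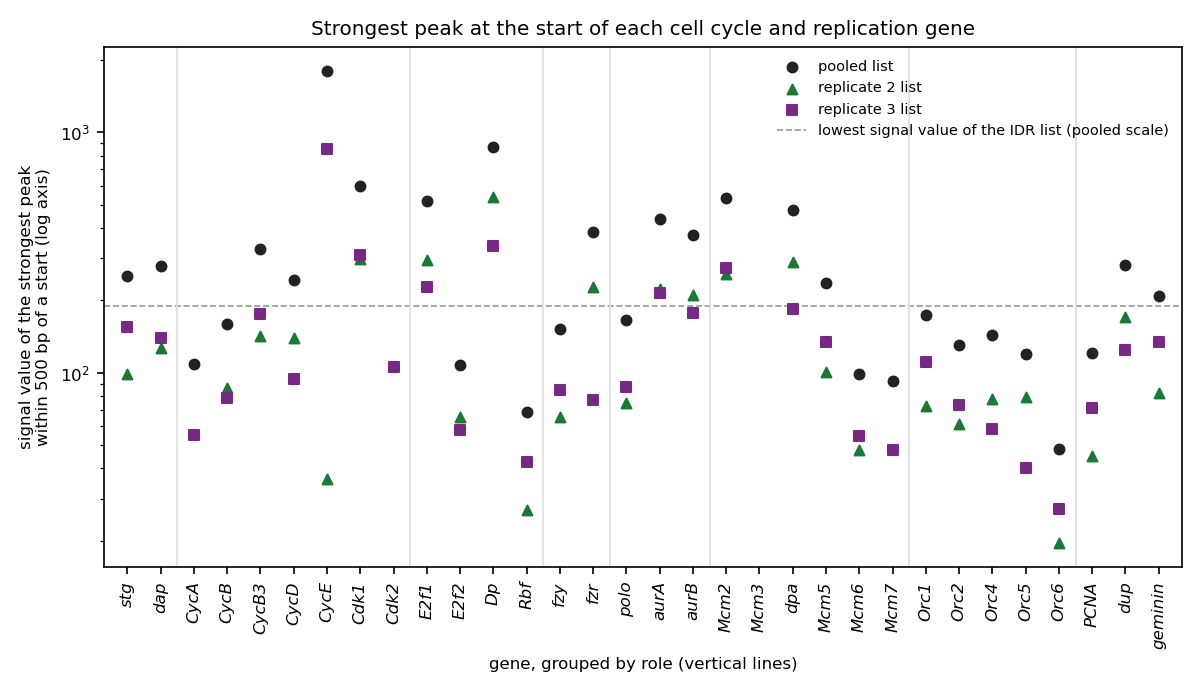
Signal value (log axis) of the strongest peak within 500 bp of a start for each of the 32 genes, grouped by role, in the pooled list (circles), replicate 2 (triangles) and replicate 3 (squares), with no symbol where a list held no peak there. CycE stood highest at 1804 in the pooled list, and the Orc genes all lay below the dashed line at 189.9, the lowest value of the IDR list.

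The sequences below are the 101 bases around the summit of peaks that show the range within the set, read on the gene's own strand. CycE, Cdk1 and aurA show summits in A+T-rich sequence without any of the words searched, and the strongest peak in an intron of E2f1 shows the same away from a start. Mcm2, Mcm5, CycB3 and stg show summits with a word searched, though the Mcm2 window was as poor in G+C as that of aurA (25.7% each). Capitals mark the words found. TATAAA, the letters of the TATA box, was in Mcm2 and stg. At Mcm2 the summit lay 235 bp upstream of the start, so TATAAA there is a match of letters only. The core CGATA shared by the DRE element and the insulator protein BEAF-32 was in Mcm5. CycB3 had the M1BP word GGTCACAC with GAGAG and ACCGCG. In stg, GCGCCA overlapped the CTCF-type word AGATGGC. Words may lie on either strand.
CycE, chr2L:15747059-15747159, minus strand: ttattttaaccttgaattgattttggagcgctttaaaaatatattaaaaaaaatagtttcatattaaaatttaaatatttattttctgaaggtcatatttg
Cdk1, chr2L:10386419-10386519, minus strand: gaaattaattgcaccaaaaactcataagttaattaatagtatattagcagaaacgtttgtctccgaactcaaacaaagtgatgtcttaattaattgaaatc
aurA, chr3R:11962938-11963038, plus strand: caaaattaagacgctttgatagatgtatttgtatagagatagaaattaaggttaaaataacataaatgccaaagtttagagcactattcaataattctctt
E2f1 intron, chr3R:21641676-21641776, minus strand: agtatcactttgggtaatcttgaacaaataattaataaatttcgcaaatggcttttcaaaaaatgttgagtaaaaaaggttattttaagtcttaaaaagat
Mcm2, chr3R:8264685-8264785, plus strand: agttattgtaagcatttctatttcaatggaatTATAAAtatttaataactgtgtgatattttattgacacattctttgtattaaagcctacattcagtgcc
Mcm5, chr3R:10788229-10788329, plus strand: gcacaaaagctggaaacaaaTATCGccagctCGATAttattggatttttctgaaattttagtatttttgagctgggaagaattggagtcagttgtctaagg
CycB3, chr3R:24870792-24870892, minus strand: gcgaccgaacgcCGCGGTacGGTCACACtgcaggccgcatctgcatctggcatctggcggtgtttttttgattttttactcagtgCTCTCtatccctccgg
stg, chr3R:29255328-29255428, minus strand: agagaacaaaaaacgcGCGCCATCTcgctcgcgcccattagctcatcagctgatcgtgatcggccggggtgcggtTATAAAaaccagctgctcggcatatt

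Among the cyclins and their kinases 4 of 7 had a start peak. CycE, the cyclin of S phase entry on chromosome 2L (FBgn0010382), carried the strongest start peak of the set, with its summit at 15747109, a signal value of 1804 and rank 420. The matching peak had 965.0 (rank 447) in replicate 2 and 848.5 (rank 370) in replicate 3, so that both replicates placed it among their strongest. It lay in an intron, 499 bp upstream of the middle of 3 annotated starts, just inside the window. The replicate 2 summit was 8 bases farther out and fell outside it, and the strongest replicate 2 peak inside the window had 36.1. With a window of 200 bp CycE did not count as having a start peak.

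Cdk1, the kinase of mitotic entry (chromosome 2L, FBgn0004106), had its start summit at 10386469, 207 bp upstream, with a signal value of 594.9. The replicates gave 298.1 and 308.0. The same summit lay 193 bp from a start of mRpS7, a mitochondrial ribosomal protein gene, so the peak cannot be given to Cdk1 alone. CycB3, a mitotic cyclin, had a summit 26 bp upstream of its start with 326.4, from 142.7 in replicate 2 and 175.9 in replicate 3. CycD, the partner of Cdk4, had 242.0 at 440 bp upstream, from 139.3 and 93.8. These replicate values went in opposite directions for CycB3 and CycD.

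The mitotic cyclins CycA and CycB and the S phase kinase Cdk2 had no IDR summit at a start. At CycB, the pooled list held a start peak of 158.8 (rank 9066), 50 bp upstream, with 86.5 in replicate 2 and 78.4 in replicate 3. CycA had 109.1 at 97 bp inside the gene, with 55.3 in replicate 3 and no start peak in replicate 2. For Cdk2 the pooled list held no peak in the gene or its 5 kb flanks, and neither did replicate 2, yet replicate 3 had a peak of 105.5 (rank 6922) 16 bp upstream of the start.

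Of the 4 genes of the E2F and Rb family, E2f1 and the E2F partner Dp had IDR start peaks. E2f2 and the Rb homologue Rbf had only relaxed ones. Dp, on chromosome 2R (FBgn0011763), had 4 IDR summits within 500 bp of its 3 starts, the most in the set. The strongest lay at 13223344 in an intron, 247 bp upstream of the middle start, with 866.2 in the IDR list, 539.9 in replicate 2 and 330.3 in replicate 3. A second intronic summit 435 bp downstream of that start had 712.1, with 396.1 and 337.8 in the replicates. The others, with 201.0 and 195.4, lay 66 bp and 361 bp upstream of a start, and that of 201.0 also lay 29 bp from a start of Fsn.

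E2f1, on chromosome 3R (FBgn0011766), had its start peak at 21633363, 290 bp upstream of an internal start, with 519.8 in the IDR list, 293.1 in replicate 2 and 228.0 in replicate 3. It spans 40568 bases and held 8 IDR summits, 7 of them in introns. The strongest, at 21641726, had 1430.4 (rank 648) and lay 3232 bp upstream of the nearest start, with 761.2 and 671.4 in the replicates. The other intronic summits ranged from 275.6 to 593.4. At its 5′-most start E2f1 had only a relaxed pooled peak of 173.3. E2f2 had a relaxed start peak of 107.6, and Rbf one of 68.9.

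The phosphatase gene stg and the inhibitor gene dap both had a start peak of modest strength. At stg (chromosome 3R, FBgn0003525) the summit at 29255378 lay in an exon of the longer transcript, 53 bp upstream of the inner of its 2 starts, with 251.6. It was 99.0 (rank 7858) in replicate 2 and 155.4 (rank 4409) in replicate 3. At dap (chromosome 2R) the summit 308 bp upstream had 278.3, with 127.3 and 140.0 in the replicates. A stronger dap summit of 351.7 lay 507 bp upstream, just outside the window.

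The activators of the anaphase-promoting complex, which marks cyclins for destruction, differed in call. The summit at fzr, the Cdh1 homologue that acts in G1, lay 442 bp upstream with 383.8, and a further summit of 250.2 lay 642 bp upstream, outside the window. The fzr peak had 227.5 in replicate 2, and in replicate 3 the matching summit of 158.7 fell outside the window, where 77.3 was the strongest value. At fzy, the Cdc20 homologue of mitosis, only a relaxed peak of 152.5 was found, 94 bp upstream.

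Of the mitotic kinases, aurA and aurB had start peaks and polo did not. The summit at aurA, a kinase of centrosomes and the spindle (chromosome 3R, FBgn0000147), was 136 bp upstream with 435.6, and the replicates gave 223.9 and 214.4. At aurB, the kinase of the chromosomal passenger complex (chromosome 2L, FBgn0024227), the summit 190 bp upstream had 373.0, with 210.2 and 176.6. Another aurB summit 391 bp upstream had 232.7, with 109.7 in replicate 2 and no replicate 3 summit within 100 bp. The replicate 3 peak of 176.6, matched to the first summit, covered this position too. At polo the pooled list had 165.2 (rank 8708), below the lowest IDR value, in an exon 55 bp upstream of the inner start. The aurA and aurB summits also lay 183 bp and 252 bp from a start of CG3281 and of Stam, a gene of receptor sorting.

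**Figure D2:**
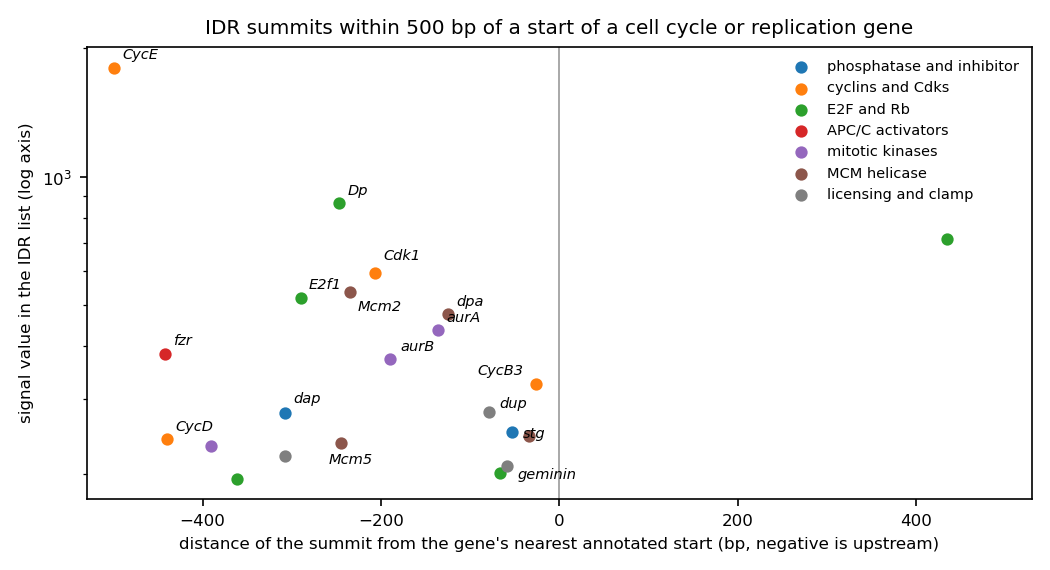
Signal value (log axis) of each of the 22 IDR summits within 500 bp of a start, against the distance from the nearest annotated start of the same gene in bp (negative is upstream), coloured by role. All summits but that of Dp at 435 bp lay upstream of the nearest start, which at some genes was an internal one. The labels name each gene's strongest summit.

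Of the MCM helicase genes, Mcm2, dpa (the fly Mcm4) and Mcm5 had a start peak and Mcm3, Mcm6 and Mcm7 had none. The Mcm2 summit (chromosome 3R, 8264735) lay 235 bp upstream with 534.8, from 258.6 in replicate 2 and 271.6 in replicate 3. It also lay 284 bp from a start of RPA1, the gene of the large subunit of the single-strand binding protein of replication. The same peak thus counts for 2 replication genes. A second Mcm2 summit of 245.9 lay 34 bp upstream, with 80.5 in replicate 2 and no replicate 3 summit within 100 bp. The replicate 3 peak of 271.6, matched to the first summit, overlapped this second peak. With a window of 200 bp only this second summit counted for Mcm2. At dpa (chromosome 2R, 7500002) the summit lay 125 bp upstream of the inner start with 475.6, from 290.1 and 183.6. At Mcm5 (chromosome 3R, 10788279) it lay 245 bp upstream with 236.8, from 100.7 and 134.1, and only 53 bp from a start of Art1, an arginine methyltransferase gene. A pooled peak of 98.5 stood at Mcm6 and of 92.2 at Mcm7. Mcm3 had no start peak in any of the 4 lists.

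None of the 5 origin recognition genes in the set had an IDR start peak, against 25.2% of all protein-coding genes with one. Each had a relaxed one, against 54.1% of all genes. Orc3, counted below with the replication initiation and fork genes, likewise had only a relaxed one. The pooled signal values were 173.1 for Orc1, 143.2 for Orc4, 131.0 for Orc2, 119.1 for Orc5 and 48.4 for Orc6. In replicate 3 the Orc1 peak had 110.7 (rank 6547), inside the 7630 strongest peaks of that replicate, and in replicate 2 it had 72.7 (rank 10336). Orc5 went the other way, with 79.6 in replicate 2 and 40.1 in replicate 3. Whether this group of 5 differs from the other roles was not tested.

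The licensing factor gene dup and its inhibitor geminin had start peaks, and PCNA, the sliding clamp of the replication fork, did not. At dup (chromosome 2R, the fly Cdt1) the summit at 15380693 lay 79 bp upstream of its inner start with 279.4, from 170.5 in replicate 2 and 123.3 in replicate 3, and 31 bp from a start of SRPK, a kinase gene. A second dup summit of 221.0 lay 308 bp upstream of its outer start. At geminin (chromosome 2R) the summit lay in an intron, 59 bp upstream of its inner start. It had 208.6, the weakest of the 16, from 82.6 (rank 9256) and 134.1 (rank 5244). At PCNA the pooled list had 120.7, in an exon 14 bp upstream of its inner start.

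**Figure D3:**
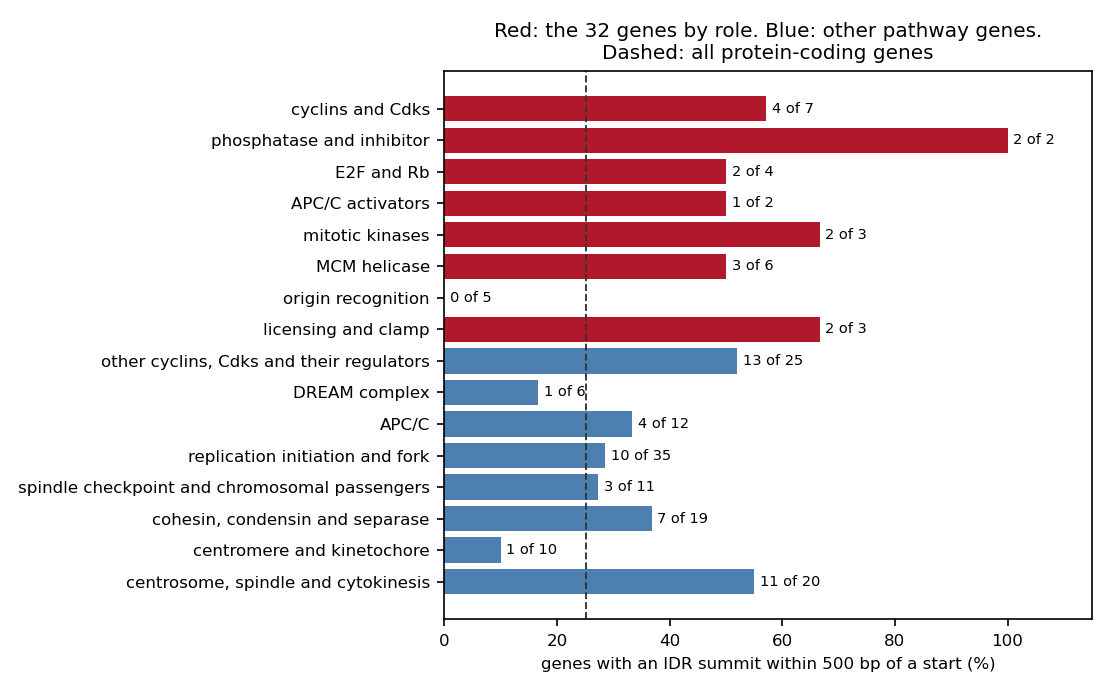
Percentage of genes with an IDR summit within 500 bp of a start, for the 32 genes by role (red) and for other genes of the pathway (blue), with the number of genes beside each bar and the share of all protein-coding genes, 25.2%, as a dashed line. Most groups hold so few genes that 1 gene moves the bar by many points.

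Below the IDR threshold most of the remaining genes still carried a weaker peak. Of the 32 genes, 30 had a pooled relaxed summit within 500 bp of a start, against 54.1% of all protein-coding genes, and Cdk2 and Mcm3 were the exceptions. Among the 16 without an IDR start peak, 14 (87.5%) had such a relaxed peak, against 38.6% of all 10425 protein-coding genes without an IDR start peak, these 16 included. Its signal value ran from 48.4 to 173.1 with a median of 119.9, against 109.3 over all such genes. So most of these genes had an entry in the relaxed list, which holds 30000 peaks down to a signal value of 37.7. Of the 14, all but CycA and Mcm7 had a start peak in both replicate lists. At Orc6 the replicate 2 value of 19.6 was near the lowest of that list, 18.8. Whether such weak peaks stand for binding was not tested.

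Each replicate was also taken alone, with its own 7630 strongest peaks. In replicate 2, 12 of the 32 genes had a start peak (24.4% of all genes did), and in replicate 3 it was 16 (26.3% of all genes). Of the 16 genes with an IDR start peak, 10 were found in both replicates, namely CycB3, Cdk1, E2f1, Dp, dap, aurA, aurB, Mcm2, dpa and dup. Taken alone, replicate 2 lacked stg, CycE, Mcm5 and geminin at this cut and window. Replicate 3 lacked CycD and fzr and gained Cdk2 and Orc1. The peaks of CycE in replicate 2 (965.0, rank 447) and fzr in replicate 3 (158.7, rank 4281) were present, with summits just outside the 500 bp window. Those of stg, Mcm5 and geminin in replicate 2 and of CycD in replicate 3 ranked from 7738 to 9256, past the cut.

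The matched replicate values of the 16 start peaks were spread about as widely as those of genes at large, with more of them higher in replicate 3. The log2 ratio of replicate 2 to replicate 3 ran from −0.70 at geminin to 0.71 at Dp, with a median of 0.12 and an SD of 0.45. Over the 3379 genes whose start peak was matched in both replicates the median was 0.24 with an SD of 0.43. Values for stg (−0.65), Mcm5 (−0.41) and CycB3 (−0.30) were also higher in replicate 3, and those for dpa (0.66) and CycD (0.57) higher in replicate 2. In all, 7 of the 16 (43.8%) were higher in replicate 3, against 27.3% of all genes, and the difference was not tested.

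**Figure D4:**
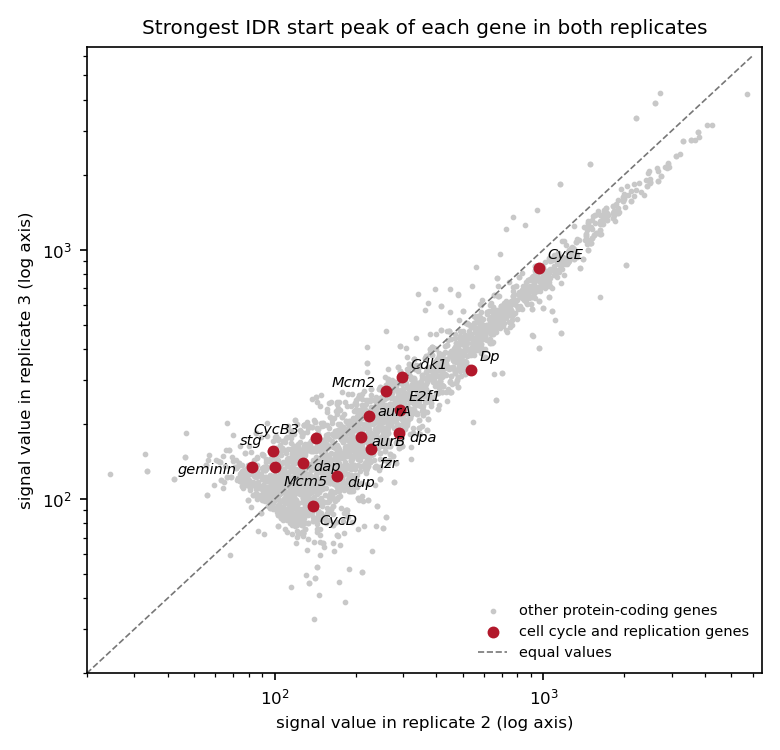
Signal value of each gene's strongest IDR start peak in replicate 2 and replicate 3 (both log axes), with the 16 cell cycle and replication genes in red, other protein-coding genes in grey and a dashed line at equal values. The red points lie within the grey cloud, with CycE the highest and geminin and stg to the upper left of the line.

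All 16 strongest summits lay upstream of the nearest start of their gene, as did 84.6% of the 3520 over all genes. At stg, CycE, E2f1, Dp, dpa, dup and geminin that start was an internal one, and the summit lay in an exon or intron of the gene. How often this held over all genes is not given here. The distance ran from 26 bp (CycB3) to 499 bp (CycE) with a median of 221 bp, against 145 bp over all genes. For 7 of the 16 the summit also lay within 500 bp of a start of another protein-coding gene (43.8%, against 55.3% over all genes): mRpS7 beside Cdk1, CG3281 beside aurA, Stam beside aurB, RPA1 beside Mcm2, didum beside dpa, Art1 beside Mcm5 and SRPK beside dup. At Cdk1, Mcm5 and dup the neighbour's start was the nearer. A peak at such a shared promoter cannot be assigned to either gene from these lists.

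The bases within 50 bp of the 16 summits had a median G+C content of 34.7%, against 30.7% over all genes, and ranged from 17.8% at CycE to 56.4% at CycB3. The higher median did not hold in either replicate alone: it was 28.2% against 32.7% over all genes in replicate 3, and 29.7% in both sets in replicate 2. In the windows 300 bp to either side the G+C content was 50% at CycE and 43.1% at CycB3, so CycE's summit was poorer and CycB3's richer in G+C than its surroundings. Summits at stg (54.5%, flanks 41.1%) resembled that of CycB3. Those at E2f1 (24.8%, flanks 57.4%), aurA (25.7%, flanks 50%) and dap (22.8%, flanks 49.0%) resembled that of CycE. The printed sequences show both kinds.

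Promoter words were searched on both strands in the 101 bases around each summit and are given as shares of genes. TATAAA was found at 4 of 16 genes, E2f1, aurB, Mcm2 and stg, against 26.1% of all genes with a start peak. It was counted wherever it lay in the window, whatever its distance from a start. The summits of E2f1, aurB and Mcm2 lay 290 bp, 190 bp and 235 bp upstream of a start, and that of stg 53 bp. The core CGATA was found at Mcm5 and geminin (12.5%, against 20.3%), and the full DRE word TATCGATA, which contains it, at none of the 16 (against 3.78%). At Mcm5 the core occurred on each strand.

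The E2F words TTTCCCGC, TTTCGCGC, TTTGCCGC and TTTGGCGC, which E2F with Dp is known to bind at S phase genes, were found at dpa alone (TTTGGCGC), against 1.28% of all genes. Any of GCGCCA, the word ACCGCG or the word GGCGCC was found at stg, CycB3 and dpa (18.8%, against 4.97%). On its other strand TTTGGCGC contains GCGCCA, so at dpa both matches are the same letters, and outside the E2F words the count was 2 of 16, stg and CycB3 (12.5%, against 4.57%). These last words came from an earlier look at all the peaks of this series, so their share is not independent of it. The M1BP word (against 1.62%) and GAGAG (against 7.53%) were found only at CycB3 among the 16, and the CTCF-type word only at stg (against 1.76%). The E-box CACGTG was at none (against 0.909%). A match is a description of the letters, and no match says only that these letters are not in the window.

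Within the genes and their 5 kb flanks, 29 of the 32 genes had an IDR summit, against 58.1% of all protein-coding genes, and Cdk2, Mcm7 and Orc2 had none. The members are somewhat longer than genes at large, with medians of 2869 and 2166 bases, which widens the search. In all 66 IDR summits fell there, 22 of them within 500 bp of an own start. Of the other 44, 28 lay within 500 bp of a start of another protein-coding gene. The same share over all IDR summits is not given here. Without flanks, 8 of the 32 genes (25%) had an IDR summit, against 15.8% of all protein-coding genes, and with flanks of 2 kb it was 22 (68.8%, against 43.7%).

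**Figure D5:**
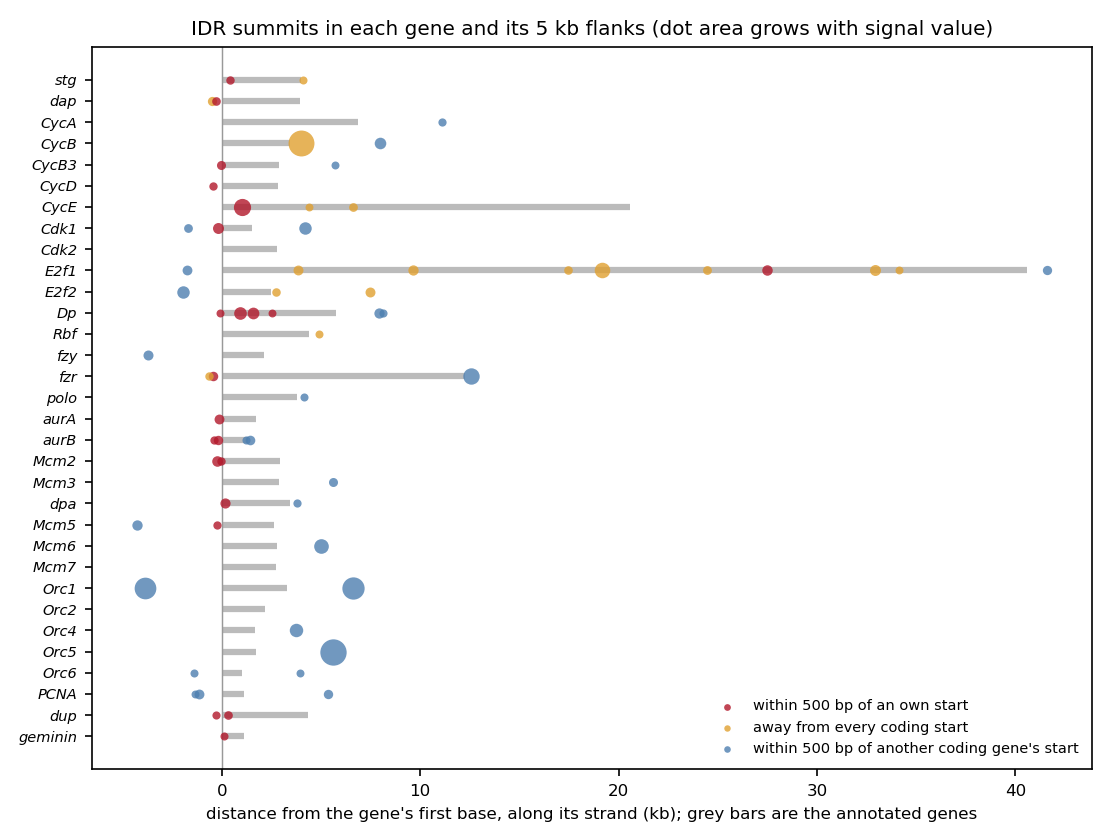
IDR summits in each of the 32 genes and its 5 kb flanks, by distance in kb from the gene's first base along its strand, with dot area growing with signal value and the annotated gene as a grey bar. Red dots lie within 500 bp of an own start, blue dots within 500 bp of another gene's start and orange dots away from every coding start. The largest dots are those near CycB, Orc5 and Orc1.

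The 5 strongest summits in the spans of the replication genes lay nearest to starts of neighbouring genes. At Orc5 the summit of 4553 (rank 37) lay 106 bp from a start of CenG1A. The summits of 3189.9 and 3013.8 beside Orc1 lay 161 bp from a start of CG1602 and 276 bp from a start of Drat. That of 1244 beside Mcm6 lay 260 bp from a start of Fum1, the gene of the citric acid cycle enzyme fumarase, and that of 1010.5 beside Orc4 lay 248 bp from a start of Reg-5. Next in strength came the Mcm2 start summit described above. The PCNA flank held a summit of 432.0 at 32 bp from a start of RpS18, a ribosomal protein gene. The 5 summits and that beside PCNA lay more than 1 kb from the nearest start of the replication gene itself.

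Other members without a start peak showed the same arrangement or weaker summits. At Mcm3 the only IDR summit of the gene and its flanks had 322.6 and lay 106 bp from a start of CG3309. Beside E2f2, the summit of 835.6 lay 73 bp from a start of Coq3, and another of 262.5, past the 3′ end, was 2198 bp from the nearest E2f2 start with no other coding start nearer. At Rbf a summit of 201.7 past the 3′ end was 3451 bp from the nearest coding start. The summits beside CycA (228.0), polo (210.2) and fzy (452.9) lay within 500 bp of a start of CG11597, of alphaSnap and of CG5861.

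A far stronger summit of this kind lay beside CycB. The summit at 22802973 on chromosome 2R had 4406.6 (rank 46), with 2502.2 (rank 37) in replicate 2 and 1923.5 (rank 53) in replicate 3. It lay past the 3′ end of CycB, 3330 bp from the nearest CycB start, and no other protein-coding start was nearer. It was the strongest of the 16 summits away from every coding start. The next were the E2f1 intron summits of 1430.4 and 593.4.

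A further 141 genes of these processes, or named as cyclins or Cdks, were listed, and 138 were found in the annotation. An IDR start peak was present at 50 of them (36.2%, against 25.2% of all genes), made up of 47 distinct peaks, since Cdk12 and SAK, Bub3 and Cap-D2, and barr and lok shared a peak. The groups differed in count. Centrosome, spindle and cytokinesis genes had one in 11 of 20 cases, with cnn at 1729.1, pbl at 1568.3, tum at 1318.2 and the septin gene pnut at 1076.8. Other cyclins, Cdks and their regulators had one in 13 of 25 cases. The strongest were the checkpoint kinase gene mei-41 at 1117.4, Cdk12 at 818.0, the Chk1 homologue grp at 747.4 and tefu at 434.5. This group was listed by name and also counts cyclins and Cdks of transcription, among them Cdk12, Cdk8, Cdk9, CycC and CycT. Its share is thus not one of cell cycle regulators alone.

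Cohesin, condensin and separase genes had a start peak in 7 of 19 cases, led by pds5 (2158.5), the strongest of all the other pathway genes, SMC2 (787.6), SA1 (582.0) and Cap-D2 (545.0). Genes of the anaphase-promoting complex had one in 4 of 12 cases (Cdc16 1319.9, vih 324.8, Cdc27 254.5 and APC4 215.6). Replication initiation and fork genes had one in 10 of 35 cases, near the share of all genes, among them RnrS (1197.4), a subunit gene of ribonucleotide reductase, the polymerase subunit gene PolD2 (1042.9), RPA1 (534.8, the peak shared with Mcm2) and Top1 (464.6). That group also counts tim, which in the fly is the circadian clock gene.

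Spindle checkpoint and passenger genes had one in 3 of 11 cases (Bub3 545.0, BubR1 236.7 and Mad1 223.6). Genes of the DREAM complex, a regulator of transcription counted here without Dp, E2f2 and Rbf, had one in 1 of 6 cases (mip130, 296.6). Of those left out, E2f2 and Rbf had only relaxed start peaks, and the strongest IDR start peak of Dp had 866.2. Centromere and kinetochore genes had an IDR start peak in 1 of 10 cases (Nnf1a, 217.8). No group was tested against another.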

How the data were processed

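The authors deposited peak lists in the narrowPeak layout, with coordinates on build dm6. A text deposited with them says that each replicate and the pool were called against 1 control alignment, which was not analysed here, and that the IDR peaks derive from the replicate and pooled lists. Those 7630 peaks are the strongest of the pooled list. No caller or aligner was named in the labels or files. Signal values are the score the authors deposited for a peak, and its summit is the deposited offset from the peak's start.

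Gene starts were read from Ensembl release 115, without transposable elements, and bases from NCBI RefSeq Release 6, the assembly that dm6 denotes. No peak reached past an arm's end. The strongest summit within 500 bp of any annotated start was taken for each gene, as were all summits in the gene and 5 kb to either side. Replicate peaks were matched within 100 bp. Coordinates count from 1. No test was run and no p-value is given, since there is 1 group. The lists give no counts, so depth and its precision are unknown.

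Members, lists and words were chosen with earlier results of these data known. Named were all members, the 4 other pathway genes per group with the strongest peak, and neighbours sharing a start summit. Neighbours of flank peaks, genes with shared peaks, tim and the distance classes were chosen after the values were seen. Alternatives were windows of 200 and 1000 bp, the 3815 strongest IDR peaks, the 5′-most start, each replicate alone, flanks of 0 and 2 kb, matching within 50 and 200 bp, and 25 or 100 bases around the summit. The assignment rules were tested on simulated data. Python 3.11.15, numpy 2.4.6 and matplotlib 3.10.9 were used.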

Additional observations from a re-analysis of the deposited data

How the results depend on the processing

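Of the 32 genes, 16 had an IDR start peak (25.2% of all genes did). With a window of 200 bp it was 9 (18.3% of all genes), and among the 3815 strongest IDR peaks 8 (13.1%). Without replicate 2 the count was 16 (26.3% of all genes) and without replicate 3 it was 12 (24.4%). With the 5′-most start it was 14. The 50 other pathway genes, of 138, fell to 23 among the 3815 strongest peaks, where 13.1% of all genes had a start peak. Genes with a summit in the span fell from 29 (58.1% of all genes) to 8 without flanks (15.8%) and to 18 among the 3815 strongest peaks. For the 5′-most start and for these 18 no share over all genes is given, so those counts stand without a comparison. With a window of 200 bp the median signal value was 279.4 in place of 378.4, over fewer genes, and the median position was −66.0 bp in place of −221.0 bp. The median position was −149.0 bp without replicate 2 and −213.0 bp without replicate 3. An E2F word was at 1 gene, at 0 with 25 bases to either side and at 2 with 100. The DRE word was at 0 genes, and at 1 without replicate 2. Median G+C content was 34.7%, 32.1% with 100 bases to either side, 28.2% without replicate 2 and 29.7% without replicate 3, where the genes called also change. Over all genes it was 30.7%, 32.7% without replicate 2 and 29.7% without replicate 3. The causes were not tested. The other 27 values stayed within 1.5 times for counts, or within the spread between replicates or genes. No paired analysis was possible because there is 1 group. Depth is unknown, so weak or missing peaks cannot be read as absence.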

Other observations

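Start peaks whose summit lay within 100 bp of a start had lower median signal values and higher median G+C content than those farther out, over all genes and among the few cell cycle genes. At stg, CycB3, dup and geminin, the 4 members with a summit that near, the median signal value was 265.5 and the median G+C content 49.5%. At the 9 members with a summit from 201 to 500 bp away the medians were 519.8 and 25.7%, and at the 3 from 101 to 200 bp away, aurA, aurB and dpa, they were 435.6 and 33.7%. Over all protein-coding genes the medians were 279.7 and 39.6% for 1094 genes within 100 bp, 469.8 and 27.7% for 1322 genes from 101 to 200 bp, and 454.4 and 29.7% for 1104 genes from 201 to 500 bp. The near summits were also more often higher in replicate 3, at 3 of 4 members, all but dup, and at 43.3% of genes, against 20.1% of genes from 101 to 200 bp and 20.2% from 201 to 500 bp. Among members it was 0 of 3 and 4 of 9 in those classes. These classes were chosen after the values were seen and were not tested.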
